A study of Mus musculus with 6 samples.

Results

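The interferon ligands, receptors and Janus kinases examined here were 9 genes, chosen by name from the 54532 genes of the FPKM table. FPKM relates the fragments of a gene to the length of its model and to library size, so that levels of different genes can be set side by side. The ligands were Ifnb1 and Ifng, the receptor chains were Ifnar1, Ifnar2, Ifngr1 and Ifngr2, and the kinases were Jak1, Jak2 and Tyk2. All 9 genes had a mean of at least 1 FPKM and entered the test. The libraries came from macrophages of C57BL/6J mice, 3 of wild type (WT, replicates 1 to 3) and 3 of progranulin knockout (PGRN KO, replicates 4 to 6) genotype, the latter lacking the secreted glycoprotein encoded by Grn. All cells, controls included, were taken from the peritoneal cavity according to the labels, plated at 2000000 per well and exposed for 6 hours to live Candida albicans (1 fungus to 1 macrophage by the labels), and unchallenged cells were not analysed here. In the study's own account the cells were instead bone marrow-derived and met the fungus at another ratio, and it names another supplier for the WT mice than for the knockout line, so that the cell source and the ratio are unsettled and colony and genotype cannot be told apart. The labels do not say whether each library came from its own mice, and p-values therefore measure the spread between these libraries, which may be technical.

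Interferons are secreted cytokines that alert cells to infection. Interferon beta, the product of Ifnb1, binds a receptor built of IFNAR1 and IFNAR2, which carry the kinases TYK2 and JAK1, whereas interferon gamma, the product of Ifng, binds a receptor built of IFNGR1 and IFNGR2, which carry JAK1 and JAK2. The kinases phosphorylate STAT proteins that enter the nucleus and switch on interferon-stimulated genes. Macrophages can release interferon beta after sensing microbes, while T cells and NK cells are the classical sources of interferon gamma.

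The libraries held 15996786 to 17551619 fragments. Grn was at 323, 337 and 325 FPKM in WT and at 0.0166, 0 and 0.0167 FPKM in the knockout, as the labels require. Of 7 macrophage markers all were expressed in every library, with Adgre1, which encodes F4/80, at 162 to 195 FPKM. Adgre1, Cd68 and Fcgr1 overlapped between genotypes. Csf1r averaged 32.5 FPKM in WT and 24.7 FPKM in the knockout (limma adjusted p 0.0178), and Mertk averaged 1.41 and 3.24 FPKM (0.00640). Itgam was lower and Lyz2 higher in the knockout, without overlap (limma adjusted p 0.0848 and 0.400). Gata6, the transcription factor of resident peritoneal macrophages, was at 3.78 to 5.07 FPKM in all 6 libraries. Of the other 4 markers of resident peritoneal macrophages, Timd4 was at no more than 0.204 FPKM and Tgfb2 at no more than 0.109 FPKM in any library, while Icam2 and Lrg1 were higher in the knockout (limma adjusted p 0.00914 and 0.0196). The 5 summed to 11.0 to 12.4 FPKM in WT libraries and 16.8 to 20.6 FPKM in PGRN KO libraries, so that these markers do not settle the source of the cells. The 13 markers of T cells and NK cells summed to 2.85 to 3.07 FPKM in WT and 4.65 to 6.75 FPKM in the knockout, and none reached the level needed for testing. The 5 B cell markers summed to at most 2.49 FPKM in a WT library and to at least 6.62 FPKM in a PGRN KO library. The 5 mast cell markers summed to 2.07 to 2.76 and 9.37 to 13.8 FPKM and the 7 fibroblast or mesothelial markers to 0.932 to 1.07 and 1.94 to 3.57 FPKM in WT and PGRN KO, respectively. The 7 neutrophil markers summed to at most 0.534 FPKM in any library. In PGRN KO replicate 6 the value depended on gene length, since tested genes as short as Ifnb1 were higher there than in replicates 4 and 5 (median log2 difference 0.43) and those as long as Jak1 lower (-0.20).

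To show the regulatory sequence that precedes Ifnb1, the ligand gene whose promoter is best known, and Tyk2 and Jak1, the members that passed the test, bases upstream of the transcript start were taken from RefSeq (GRCm38.p6), where all 9 genes were found. They are printed 5′ to 3′ on the strand of the gene, and capitals mark matches on either strand to AANNGAAA (the core that interferon regulatory factors bind), TTCNNNGAA (the gamma-activated site that STAT dimers bind), GGG and TTCC with any 3 bases between (an NF-kB site) or GGGCGG (the GC box).
Ifnb1 (chr4:88522795-88523044, minus strand): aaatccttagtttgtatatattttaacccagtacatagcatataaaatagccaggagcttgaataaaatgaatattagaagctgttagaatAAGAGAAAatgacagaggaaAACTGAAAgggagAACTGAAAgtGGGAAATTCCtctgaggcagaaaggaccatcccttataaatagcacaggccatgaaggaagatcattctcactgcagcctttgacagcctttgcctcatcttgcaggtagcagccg
Jak1 (chr4:101265283-101265473, minus strand): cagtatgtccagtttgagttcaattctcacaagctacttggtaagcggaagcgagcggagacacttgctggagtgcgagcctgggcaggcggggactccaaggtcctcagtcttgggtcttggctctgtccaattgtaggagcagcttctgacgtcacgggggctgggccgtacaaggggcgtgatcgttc
Tyk2 (chr9:21131276-21131525, minus strand): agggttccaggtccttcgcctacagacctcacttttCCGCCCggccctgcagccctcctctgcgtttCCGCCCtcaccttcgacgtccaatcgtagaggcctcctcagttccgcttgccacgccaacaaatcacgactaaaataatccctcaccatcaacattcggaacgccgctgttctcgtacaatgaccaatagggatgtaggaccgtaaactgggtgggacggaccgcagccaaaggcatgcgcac

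The Ifnb1 window held 3 matches to AANNGAAA and, 2 bases after the last of them, 1 NF-kB match, GGGAAATTCC, with no overlap between matches. Of all 32851 windows of 250 bases, 21.3% held AANNGAAA and 4.65% held the NF-kB letters. The Tyk2 window held 2 GC boxes, which 32.7% of all windows held, and no match to the other motifs. The Jak1 window of 191 bases, shortened to leave out bases inside another model of the gene, held none of the 4 motifs. Among the other members, TTCNNNGAA, held by 7.02% of all windows, was found upstream of Ifng and Ifnar2. AANNGAAA was also found upstream of Ifng, the NF-kB letters upstream of Ifngr2, and GC boxes upstream of Ifnar1, Ifngr1, Ifngr2 and Jak2. These matches describe letters and no binding was measured.

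Of the 9 genes, 2 passed an adjusted p of 0.05 in limma, Tyk2 higher and Jak1 lower in PGRN KO, against 24.2% of all 8882 tested genes (10.4% higher and 13.8% lower). At an unadjusted p under 0.05 the background was 39.1%. The share of members was thus near that of all genes. WT and PGRN KO values were fully separated for 3 members, Jak1, Tyk2 and Ifnar2, against 48.8% of all tested genes. With the alternatives run, the background was 17.2% on the TPM scale, 21.1% with the sum of fragments, 22.7% under voom, 24.6% after quantile normalization, 31.7% with the correction for gene length (41.3% if replicate 6 was also left out), 47.6% with sample quality weights, 30.5% with a mean FPKM of at least 5 and 5.96% with no filter. It was 24.0% without the mean-variance trend, 23.6% and 23.5% with pseudocounts of 0.1 and 0.01, and 8.03% to 9.94% without a WT library, against 15.6%, 18.0% and 41.3% without PGRN KO replicates 4, 5 and 6. The median log2 fold change of the 9 genes was -0.03, as was that of all tested genes (-0.031). In WT the order of levels ran from Jak2 and Jak1, which overlapped, through Ifnar2, then Ifngr2 and Ifnar1, which overlapped, to Ifngr1, Ifng, Ifnb1 and Tyk2. In PGRN KO Jak1 no longer overlapped with Jak2 and overlapped with Ifnar2, while Ifnar1 and Ifngr2 overlapped, as did Ifngr1 with Ifng and Ifng with Ifnb1. The overlap of Jak1 with Ifnar2 came from PGRN KO replicate 6 alone, with Jak1 at 34.0 and Ifnar2 at 38.5 FPKM. In replicates 4 and 5 Jak1 was at 44.7 and 44.1 FPKM and Ifnar2 at 33.5 and 29.4 FPKM. The overlap of Ifnar1 (20.2 FPKM) with Ifngr2 (21.4 FPKM) in PGRN KO also came from replicate 6 alone.

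**Figure D1:**
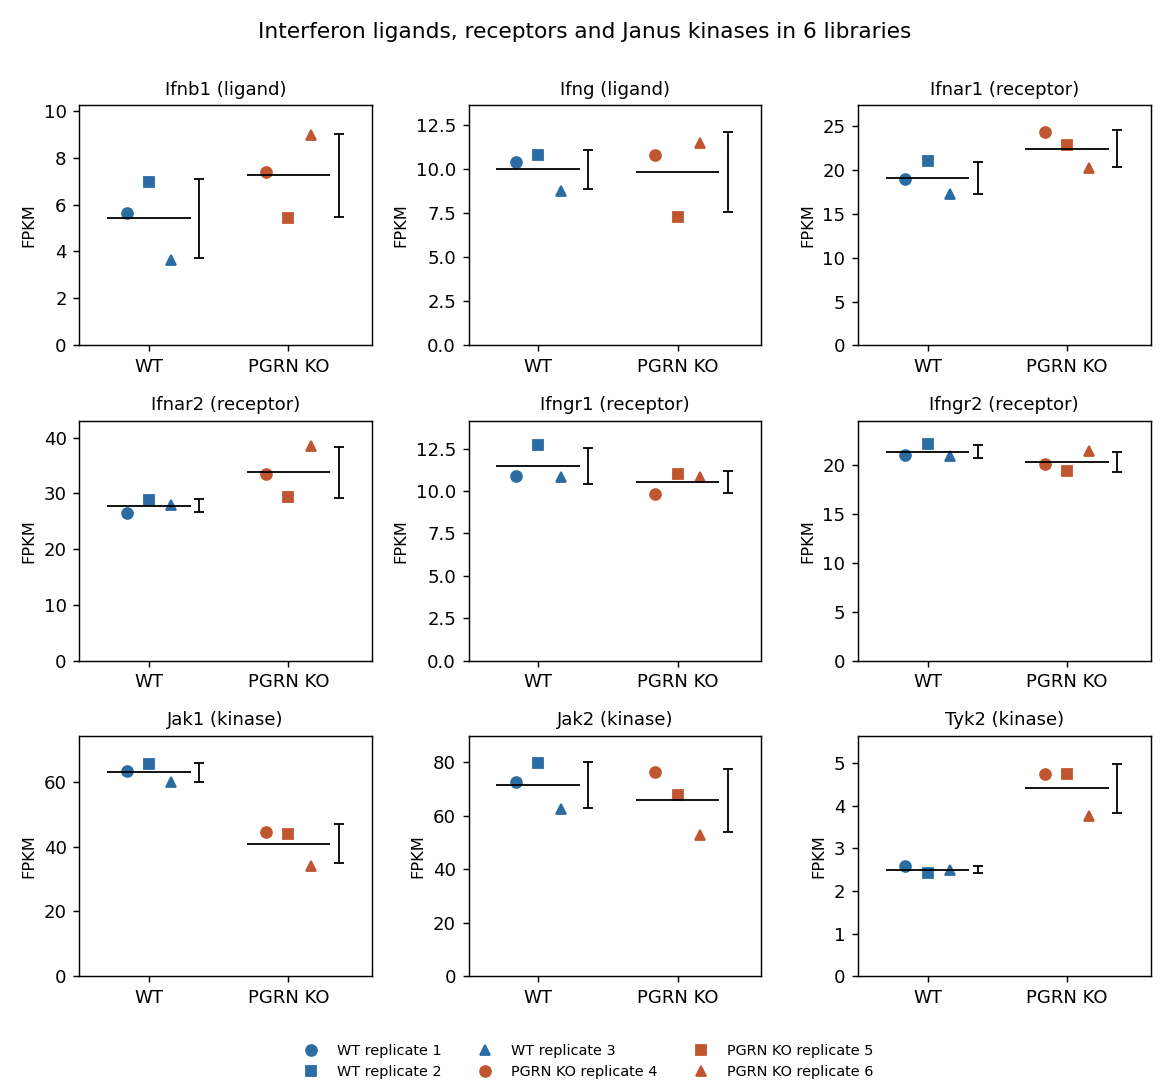
FPKM (vertical axes, each starting at 0) of the 9 genes in each library, with WT in blue, PGRN KO in orange, a line at the mean and a bar of 1 SD (n = 3 each). Jak1 lies at 59.9 to 65.6 FPKM in WT and 34.0 to 44.7 FPKM in the knockout, Tyk2 at 2.42 to 2.59 and 3.75 to 4.75 FPKM, and the points of both ligands overlap.

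Transcripts of both ligands were present in all 6 libraries and did not differ significantly between genotypes. Ifnb1 (ENSMUSG00000048806, chromosome 4, 88522025 to 88522774, GRCm38, a gene without introns) reached 5.66, 6.94 and 3.62 FPKM in the WT libraries (in the order of replicates 1, 2 and 3, as below) and 7.39, 5.42 and 8.95 FPKM in the knockout libraries (replicates 4, 5 and 6). The lowest library was of WT and the highest of PGRN KO, and the groups overlapped. In the highest, PGRN KO replicate 6, Ifnb1 lay above the mean of replicates 4 and 5 by 0.44 on the log2 scale. The median of 328 tested genes of like length was 0.43. The mean was 5.41 ± 1.67 FPKM in WT and 7.25 ± 1.77 FPKM in the knockout (SD, n = 3 each), and the log2 difference was 0.38 (SE 0.24, 95% interval -0.18 to 0.93, limma adjusted p 0.274). These values rested on 49 to 77 fragments per library in WT and 77 to 116 in PGRN KO. For 49 fragments the exact Poisson interval was 36.3 to 64.8 and for 116 fragments it was 95.9 to 139 (95%, counting error only, as these reads carry no molecular identifiers). The adjusted p was 0.135 to 0.627 over all alternatives, each with Ifnb1 higher in PGRN KO, but the log2 difference dropped to 0.16 without WT replicate 3 and to 0.23 both without PGRN KO replicate 6 and with sample quality weights. Plasmacytoid dendritic cells are strong producers of type I interferon, and their markers summed to 8.86 to 9.40 FPKM in WT and 21.3 to 35.3 FPKM in the knockout, most of it Cox6a2 (7.42 to 34.5 FPKM). Of the other 4 markers, Runx2 averaged 1.64 FPKM in WT and 0.993 FPKM in the knockout and Ccr9 averaged 0.0827 and 0.0256 FPKM, both lower without overlap (Runx2 with a limma adjusted p of 0.0525, Ccr9 below the filter). Siglech was at no more than 0.0156 FPKM and Klk1 at 0 in every library. The part of these cells in the Ifnb1 values was not tested.

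Ifng (ENSMUSG00000055170, chromosome 10, 118441046 to 118445892) was measured at 10.4, 10.8 and 8.73 FPKM in WT and at 10.8, 7.26 and 11.5 FPKM in PGRN KO, with 178 to 257 fragments per library. The range in PGRN KO enclosed that in WT. The mean was 9.96 ± 1.08 FPKM in WT and 9.86 ± 2.27 FPKM in the knockout, and the log2 difference was -0.03 (SE 0.17, interval -0.44 to 0.38, limma adjusted p 0.908). Its sign was positive in TPM, in quantile-normalized values, under voom, with the sum of fragments as library size and without WT replicate 2 or PGRN KO replicate 5. Ifng was at a level close to that of its receptor chain Ifngr1, while Nkg7, the highest of the T cell and NK cell markers, reached 1.39 FPKM, and Cd3e, a chain of the T cell receptor complex, was at 0 to 0.220 FPKM. The summed T cell and NK cell markers were higher in every PGRN KO library than in any WT library, while the Ifng values overlapped. Of these 13 markers only Ncr1 and Klrb1c had lower means in the knockout, both at no more than 4 fragments in any library. The sum does not separate T cells from NK cells. The part of these cells in the Ifng values was not tested. In bulk RNA, fewer cells of a type and less RNA per cell cannot be told apart. A share of 22.6% of the 31-base words of Ifng also occurs in transcripts of other genes, the largest part in the model Gm49751 within its locus. Gm49751 is not among the genes of the FPKM table.

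Other ligands were near the limit of detection. None of the 19 other interferon genes of a list that covers the alpha family, epsilon, kappa, zeta and lambda had a mean of 1 FPKM, and 15 were at 0 in all 6 libraries. Ifnk, which encodes interferon kappa, was the highest, with 9, 2 and 5 fragments in WT and 4, 4 and 2 fragments in PGRN KO. Alpha interferon genes are near-identical copies, so that fragments that fit several of them may have been lost or split in counting, and absence cannot be read from these zeros.

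The receptor chains were next compared. Ifnar1 and Ifnar2, the chains of the type I receptor, had higher means in PGRN KO but did not pass, and Ifngr1 and Ifngr2, the chains of the interferon gamma receptor, differed by less. Ifnar2 (ENSMUSG00000022971, chromosome 16, 91372783 to 91405589), whose product carries JAK1, was measured at 26.5, 28.9 and 28.0 FPKM in WT and at 33.5, 29.4 and 38.5 FPKM in PGRN KO. Every PGRN KO library was above every WT library, although replicate 5 lay close to WT replicate 2. The mean was 27.8 ± 1.21 and 33.8 ± 4.56 FPKM, and the log2 difference was 0.27 (SE 0.11, interval -0.003 to 0.54, limma adjusted p 0.131). It passed with sample quality weights (0.0309), after quantile normalization (0.0351), with the sum of fragments as library size (0.0415) and under voom (0.0437), and in none of the other alternatives. In these settings 47.6%, 24.6%, 21.1% and 22.7% of all tested genes passed, in the same order. Without PGRN KO replicate 6 the log2 difference was 0.17.

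Ifnar1 (ENSMUSG00000022967, chromosome 16, 91485238 to 91507441), whose product carries TYK2, was measured at 19.0, 21.0 and 17.3 FPKM in WT and at 24.3, 22.8 and 20.2 FPKM in PGRN KO. The groups overlapped through PGRN KO replicate 6 and WT replicate 2. The mean was 19.1 ± 1.90 and 22.4 ± 2.09 FPKM, and the log2 difference was 0.22 (SE 0.11, interval -0.04 to 0.48, limma adjusted p 0.183). With PGRN KO replicate 6 left out, Ifnar1 was significantly higher in the knockout, by 0.29 on the log2 scale (limma adjusted p 0.0418). It also passed with the correction for gene length (0.0429), with that correction and without replicate 6 (0.0257) and with sample quality weights (0.0128), which gave replicate 6 a weight of 0.0899. Of all tested genes, 41.3%, 31.7%, 41.3% and 47.6% passed in these settings, in the same order.

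Ifngr1 (ENSMUSG00000020009, chromosome 10, 19591949 to 19610229), the chain that binds interferon gamma, was at 10.9, 12.7 and 10.8 FPKM in WT and at 9.80, 11.0 and 10.8 FPKM in PGRN KO, with a log2 fold change of -0.11 and an interval of -0.35 to 0.12 (limma adjusted p 0.439). Ifngr2 (ENSMUSG00000022965, chromosome 16, 91547072 to 91565623), the chain that carries JAK2, was at 21.0, 22.1 and 20.9 FPKM in WT and at 20.1, 19.4 and 21.4 FPKM in PGRN KO, with a log2 fold change of -0.07 and an interval of -0.26 to 0.13 (limma adjusted p 0.580). Neither passed in any alternative, and the groups overlapped for both. The sign of Ifngr2 was positive with the sum of fragments as library size and under voom.

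Ifnar2, Il10rb, Ifnar1 and Ifngr2 lie beside each other on chromosome 16, on the same strand. Il10rb, which encodes a chain shared by the receptors of interleukin-10 and interferon lambda, averaged 12.9 ± 0.380 FPKM in WT and 12.2 ± 0.625 FPKM in the knockout, and the log2 difference was -0.08 (limma adjusted p 0.501). The intervals of the 4 genes overlapped, and whether they differ from each other was not tested. Ifnlr1, the other chain of the interferon lambda receptor, was at 0 in WT and at no more than 2 fragments in a PGRN KO library. A share of 8.50% of the Ifnar2 sequence words also occurs in transcripts of other genes. The largest part is shared with Gm21970, an overlapping model on the same strand that is listed at 0 in all libraries.

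**Figure D2:**
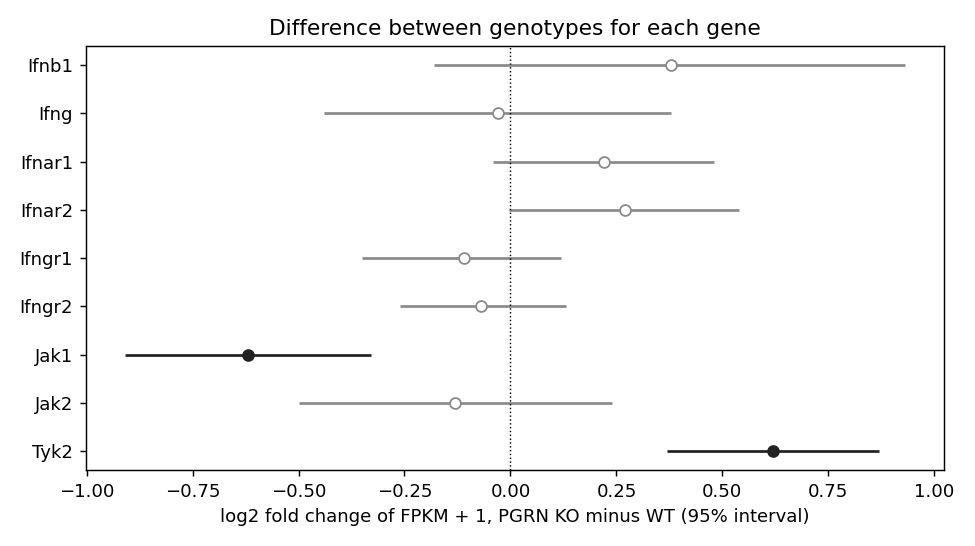
Log2 fold change of FPKM + 1 (horizontal axis, PGRN KO minus WT) for each of the 9 genes, with its 95% interval from limma as a line and filled points for genes with an adjusted p under 0.05. Tyk2 lies at 0.62, Jak1 at -0.62, and the intervals of the other 7 genes reach across 0.

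The kinases differed in opposite directions. Tyk2, which serves the type I receptor, was significantly higher in PGRN KO, Jak1, which serves both receptors, was significantly lower, and Jak2, which serves the interferon gamma receptor, did not pass. Tyk2 (ENSMUSG00000032175, chromosome 9, 21104068 to 21131243) was measured at 2.59, 2.42 and 2.49 FPKM in WT and at 4.74, 4.75 and 3.75 FPKM in PGRN KO. Every PGRN KO library lay above every WT library. The mean rose to 4.41 ± 0.574 FPKM from 2.50 ± 0.0868 FPKM in WT (SD, n = 3 each), a ratio of 1.76, and the log2 fold change of FPKM + 1 was 0.62 ± 0.11 (SE) with an interval of 0.37 to 0.87 and a limma adjusted p of 0.00866. The pseudocount of 1 lowers this value, which was 0.81 with a pseudocount of 0.01. Although Tyk2 was the lowest of the 9 genes, it rested on 246 to 308 fragments per library in WT and 445 to 617 in PGRN KO. The exact Poisson interval of the highest WT count, 275 to 344, did not reach that of the lowest PGRN KO count, 405 to 488. Tyk2 passed in all 17 alternatives in which it was tested (limma adjusted p 0.000148 to 0.0449), each library left out included. A share of 8.78% of its sequence words also occurs in transcripts of other genes. The largest part is shared with 1700084C06Rik, a transcript model on the opposite strand that is listed at 0 in all libraries. No source used here states the strand setting.

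Jak1 (ENSMUSG00000028530, chromosome 4, 101152367 to 101265282) was measured at 63.4, 65.6 and 59.9 FPKM in WT and at 44.7, 44.1 and 34.0 FPKM in PGRN KO. Every PGRN KO library lay below every WT library, and replicate 6 was the lowest. The mean fell from 63.0 ± 2.84 to 40.9 ± 5.99 FPKM, a ratio of 0.650, and the log2 fold change was -0.62 ± 0.12 (SE) with an interval of -0.91 to -0.33 and a limma adjusted p of 0.0146. The call was lost when WT replicates 1, 2 and 3 were left out in turn (limma adjusted p 0.0697, 0.0685 and 0.0514), where only 8.03%, 9.63% and 9.94% of all genes passed, and on the TPM scale (0.0621), and it held in the other 14 alternatives, with the log2 fold change between -0.69 and -0.46 in all 18. The model of Jak1 is 7227 bases long, and in PGRN KO replicate 6 it was lower by 0.37 on the log2 scale than the mean of replicates 4 and 5 (difference -0.37), whereas the median of 1605 tested genes of like length was -0.20. Without replicate 6 Jak1 was lower by a log2 fold change of -0.49 (0.00173).

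Jak2 (ENSMUSG00000024789, chromosome 19, 29251828 to 29313080) had the highest mean of the 9 genes in both genotypes. It was measured at 72.5, 79.8 and 62.5 FPKM in WT and at 76.4, 68.0 and 52.9 FPKM in PGRN KO, and the groups overlapped. The mean was 71.6 ± 8.64 and 65.8 ± 11.9 FPKM, and the log2 difference was -0.13 (SE 0.16, interval -0.50 to 0.24, limma adjusted p 0.576). PGRN KO replicate 6 lay below replicates 4 and 5 by 0.44 on the log2 scale (difference -0.44, against a median of -0.04 for 2093 genes of like length). Without it the log2 fold change was 0.016.

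Levels of 2 genes within a library do not depend on the scaling between libraries, and 4 such ratios, chosen after the values were seen, were compared. The ratio of Jak1 to Tyk2 was 24.4, 27.1 and 24.1 in WT and 9.42, 9.29 and 9.07 in PGRN KO. It was thus almost the same in the 3 PGRN KO libraries, replicate 6 included, and the gene models are of like length, 7227 and 6865 bases. The mean ratio was 25.2 ± 1.62 in WT and 9.26 ± 0.178 in PGRN KO, a difference of -1.44 on the log2 scale, with an exact two-sided permutation p of 0.1, the smallest that 3 against 3 libraries allow (0.200 adjusted over the 4 ratios). The ratio of Jak1 to Jak2 was 0.875, 0.822 and 0.958 in WT and 0.585, 0.648 and 0.643 in PGRN KO, also without overlap and with the same exact p. The ratio of Ifnar2 to Ifnar1 was 1.37 to 1.62 in WT and 1.29 to 1.91 in PGRN KO, and that of Ifngr2 to Ifngr1 was 1.73 to 1.94 and 1.76 to 2.05, and both overlapped between genotypes (exact p of 0.9 and 0.5).

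**Figure D3:**
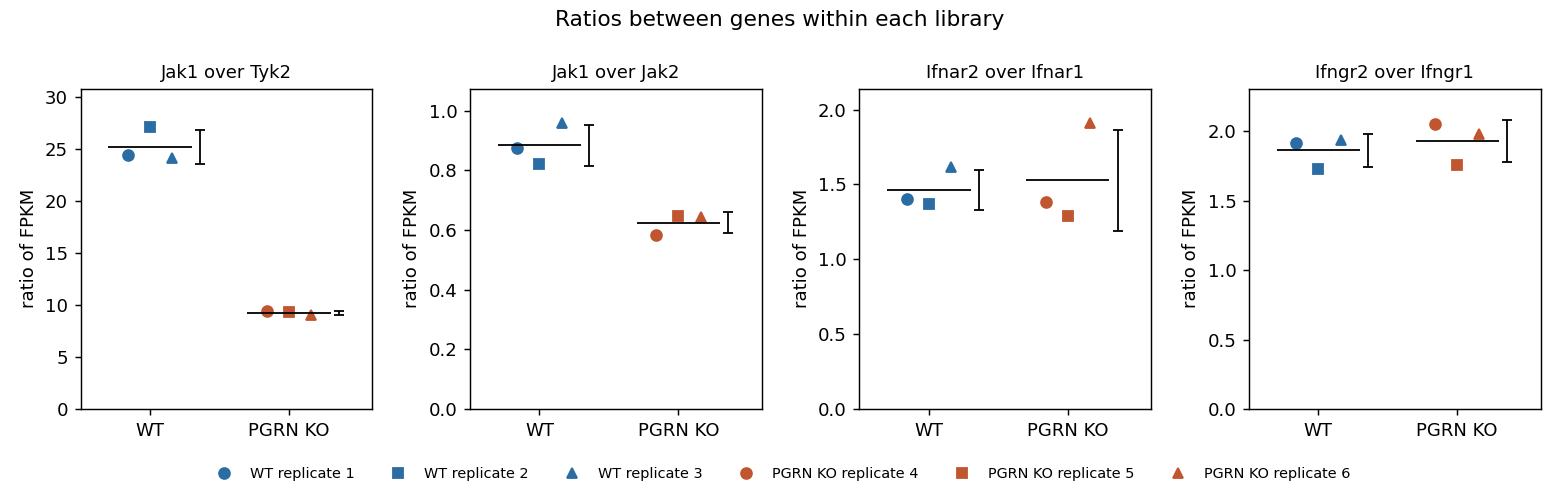
Ratio of the FPKM of 2 genes within each library (vertical axes, each starting at 0), with a line at the mean and a bar of 1 SD (n = 3 each). Jak1 over Tyk2 lies at 24.1 to 27.1 in WT and 9.07 to 9.42 in PGRN KO, whereas the ratios of the receptor chains overlap.

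Genes around these members were described by 6 further lists, shown in the plot of log2 fold changes by list. Of 9 signal transducers, 8 were tested, 2 were significantly higher and 1 lower, a share of 37.5% beside the 24.2% of all genes, with a median log2 fold change of -0.01 (-0.031 over all genes). Lists were chosen with results known, so that shares and medians of this and the next lists are descriptions. Stat2, which acts below the type I receptor, rose from 44.0 ± 2.57 to 64.8 ± 7.61 FPKM (log2 difference 0.54, limma adjusted p 0.0157). Stat5a fell from 22.8 ± 2.62 to 16.2 ± 2.01 FPKM (-0.47). Irf9, the DNA-binding partner of STAT2, was at 20.6 ± 1.02 and 20.0 ± 0.678 FPKM, and Jak3, the remaining Janus kinase, at 3.41 ± 0.0727 and 3.97 ± 0.167 FPKM (adjusted p 0.745 and 0.164). Without WT replicates 1, 2 or 3 the count of 3 was 1 in each case, where 8.03%, 9.63% and 9.94% of all genes passed. Without PGRN KO replicates 4 and 6 the share of all genes was 15.6% and 41.3%. The same background holds for the counts of the next lists.

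Of 19 negative regulators, 18 were tested, 2 were higher and 2 lower, a share of 22.2%, with a median of -0.13. Usp18, which encodes a protein that binds IFNAR2 and displaces JAK1, rose from 74.0 ± 11.0 to 138 ± 28.1 FPKM (log2 difference 0.88, limma adjusted p 0.0144), and Ptpn6, which encodes the phosphatase SHP-1, rose from 20.3 ± 0.659 to 29.5 ± 6.00 FPKM (0.50). Sh2b3, an adaptor that restrains JAK2, fell from 9.35 ± 0.287 to 6.12 ± 0.818 FPKM (-0.55), and Ptpn2, a phosphatase of JAK1, fell from 30.6 ± 2.28 to 22.7 ± 0.790 FPKM (-0.42). Socs1 and Socs3, inhibitors induced by cytokines, did not pass, at 18.5 ± 1.44 and 20.7 ± 3.48 FPKM and at 899 ± 101 and 776 ± 75.0 FPKM. The count of 4 was 7 without PGRN KO replicate 6, 1 each without WT replicates 2 and 3, and 0 without WT replicate 1, where limma found 6 at an unadjusted p under 0.05.

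Of 30 other cytokine receptor chains that signal through Janus kinases, 19 were tested, 5 were higher and 4 lower, a share of 47.4%, with a median of -0.08. Il15ra, the interleukin-15 receptor alpha chain, rose from 3.20 ± 0.353 to 13.4 ± 2.44 FPKM (log2 difference 1.77, limma adjusted p 0.00119), Il21r rose from 8.78 ± 1.09 to 16.8 ± 1.96 FPKM (0.86) and Il3ra from 15.2 ± 0.533 to 28.8 ± 8.99 FPKM (0.84). Csf2rb, the common beta chain of the receptors for GM-CSF, interleukin-3 and interleukin-5, fell from 300 ± 15.5 to 198 ± 18.2 FPKM (-0.60), its neighbouring paralog Csf2rb2 from 196 ± 4.52 to 123 ± 20.0 FPKM (-0.69), and Lifr from 2.76 ± 0.146 to 1.52 ± 0.437 FPKM (-0.59). Csf2rb and Csf2rb2 are close copies and may share reads. Il15ra was picked by the study from these libraries. The count of 9 was 2, 3 and 3 without WT replicates 1, 2 and 3.

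Of 27 genes for the induction of interferon beta, 26 were tested, 4 were higher and 5 lower, a share of 34.6%, with a median of 0.02. Higher were Tlr3, a sensor of double-stranded RNA, from 1.76 ± 0.241 to 6.14 ± 1.52 FPKM (log2 difference 1.35, limma adjusted p 0.00297), Irf5, a transcription factor that acts below pattern recognition receptors, from 35.5 ± 3.41 to 62.3 ± 9.65 FPKM (0.79), and Dhx58 from 29.2 ± 4.29 to 48.0 ± 7.73 FPKM (0.70). Lower were the adaptors of TLR3 and TLR4, Ticam2 from 7.14 ± 0.938 to 3.39 ± 0.194 FPKM (-0.89) and Ticam1 from 14.2 ± 0.594 to 9.57 ± 0.478 FPKM (-0.52), and Jun from 36.4 ± 3.85 to 24.1 ± 2.00 FPKM (-0.57). Irf3 and Irf7, which bind the Ifnb1 promoter, did not pass (limma adjusted p 0.0832 and 0.0775). Irf3 averaged 2.99 ± 0.278 FPKM in WT and 4.24 ± 0.878 FPKM in the knockout, and Irf7 116 ± 10.7 and 177 ± 48.5 FPKM. Both were higher in every PGRN KO library than in any WT library, beside 48.8% of all tested genes without overlap in either direction. The count of 9 was 2 and 4 without WT replicates 1 and 3.

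Below the receptors, 15 of 30 type I interferon targets were higher and none lower, beside the 10.4% of all genes that were higher, with a median of 0.60, and the largest values were those of Mx1 (log2 fold change 1.91), Cmpk2 (1.67) and Ifi44 (1.63). Ifi44 was picked by the study from these libraries. Of the other 15 genes, Isg15, a ubiquitin-like modifier, was at 1668 ± 172 and 1991 ± 639 FPKM (limma adjusted p 0.516). The count of 15 became 9 when WT replicate 1 was left out and 23 when PGRN KO replicate 6 was. Of these 23, 20 were higher and 3 lower. The summed markers of B cells, mast cells and fibroblasts, given above, were also higher in every PGRN KO library, and their part in these values was not tested.

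Of 30 interferon gamma targets 27 were tested, 12 were higher and 4 lower, a share of 59.3%, with a median of 0.34. The higher ones with the largest values were the guanosine triphosphatases of host defence Iigp1, from 1.79 ± 0.431 to 8.81 ± 2.34 FPKM (log2 difference 1.80, limma adjusted p 0.00206), Gbp5 (1.49) and Gbp3 (1.47). The lower ones with the largest values were MHC class II genes, H2-Eb1 from 151 ± 7.36 to 60.6 ± 15.7 FPKM (-1.33, limma adjusted p 0.00397) and H2-Aa from 111 ± 2.69 to 59.8 ± 11.0 FPKM (-0.89), with Cd74, the invariant chain, from 768 ± 33.0 to 462 ± 121 FPKM (-0.76). The count of 16 was 7 each without WT replicates 1 and 3 and 10 without PGRN KO replicate 4. B cells also express MHC class II genes, and the summed B cell markers were higher in PGRN KO. Among conventional dendritic cell markers Ccr7 was the most abundant, at 25.5 to 32.4 FPKM in WT and 14.4 to 18.2 FPKM in PGRN KO. Xcr1 and Flt3 also averaged lower, without overlap, at 1.16 and 0.320 FPKM in WT and 0.388 and 0.120 FPKM in the knockout. Zbtb46 averaged higher (0.550 and 0.698 FPKM in WT and PGRN KO) and Itgae lower (0.0876 and 0.0766 FPKM), and both overlapped. All but Ccr7 lay below the filter. The part of B cells and dendritic cells in the values was not tested. Several list members are shared between lists, namely Stat2, Usp18, Socs1, Dhx58 and Irf7. The list names do not say which interferon acted on the macrophages, and this was not tested.

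**Figure D4:**
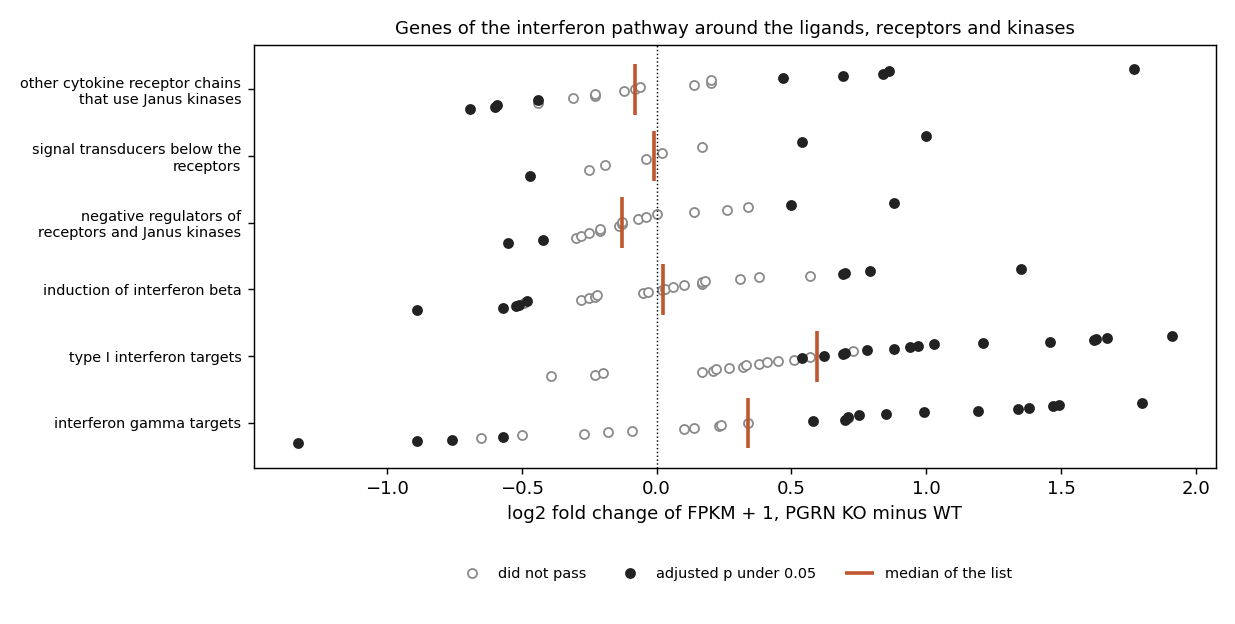
Log2 fold change of FPKM + 1 (horizontal axis, PGRN KO minus WT) of each tested gene in 6 lists, with filled points for an adjusted p under 0.05 in limma and an orange bar at the median of the list. The medians are -0.08, -0.01, -0.13, 0.02, 0.60 and 0.34 from top to bottom.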

How the data were processed

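Polyadenylated RNA of 3 WT and 3 PGRN KO macrophage libraries was sequenced, and the deposited values are FPKM per gene, which the authors computed from aligned reads. The submitters' processing notes name HISAT2 2.0.5, featureCounts 1.5.0-p3, DESeq2 1.20.0 and GRCm38 (mm10), whereas the methods of the study name other versions and HTSeq, so that the counting tool is not settled. Neither the annotation release nor the strand setting is stated in the sources used here. The coordinates of the 9 members were the same in GENCODE of GRCm38.

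FPKM times gene length gave whole fragments (within 0.001 of a step) for 100.0% of values above 0 in each library. The authors' library size was 0.925 to 1.09 times the fragments. The deposited gene length in bases was also used.

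The 8882 of 54532 genes that averaged 1 FPKM or more were tested as log2(FPKM + 1), a scale that understates changes of low genes, with limma 3.58.1 in R 4.3.3 (mean-variance trend, no covariates, two-sided, Benjamini-Hochberg, threshold 0.05). The authors called genes with DESeq2, which was not run here. The recovered fragments were instead tested with voom as an alternative. No member lay below the filter, so that the planned permutation test for such members was not needed. On data simulated for 3 against 3 libraries and 8882 genes, 87.3% of 200 genes changed by 1 on the log2 scale were called, and 8.17% of calls were false. The simulation gave every gene a dispersion of 0.02 and held no effect of gene length, so that these rates need not hold for the data. Ratios were compared by exact permutation with scipy 1.17.1.

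Named genes were Grn, the 9 members, up to 3 called genes per direction with the largest change in each list, and the 3 genes with the most similar profile. A called gene of the signal transducer list is not reported here. Values of some other list genes and of cell type markers are given beside these. Members and lists were chosen with earlier results of these data known. Alternatives were pseudocounts of 0.1 and 0.01, no filter, a mean FPKM of at least 5, a TPM scale, quantile normalization, the sum of fragments as library size, no trend, sample quality weights, voom on recovered fragments, a loess correction for gene length (span 0.5), and leaving out each library. Replicate 6 was compared with genes of 0.8 to 1.25 times a member's length. With 3 libraries per group, the spread between libraries and, for Ifnb1, the number of fragments limit the precision.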

Additional observations from a re-analysis of the deposited data

How the results depend on the processing

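No paired analysis was possible because replicates 1 to 3 are all of WT and replicates 4 to 6 all of the knockout. The number of members past the threshold, 2 in the main test, was 1 on the TPM scale (Tyk2), 1 with a mean FPKM of at least 5, where Tyk2 is not tested, and 4 with sample quality weights (Jak1, Tyk2, Ifnar1 and Ifnar2), and 1 to 3 with each library left out. Of 161 values of single members under the alternatives, 138 kept their sign and their side of the threshold, 4 lost the call (Jak1), 8 gained it (Ifnar1 and Ifnar2) and 11 changed sign, none of them past the threshold. Ifng, at -0.03, came to 0.017 in TPM, 0.003 in quantile-normalized values, 0.059 with the sum of fragments and 0.065 under voom, and -0.14 to 0.15 with each library left out, being positive without WT replicate 2 (0.022) and PGRN KO replicate 5 (0.15). Ifngr2, at -0.07, was 0.029 with the sum of fragments and 0.032 under voom. Jak2, at -0.13, was 0.005 with sample quality weights, 0.042 with the length correction without PGRN KO replicate 6, and -0.24 to 0.016 with each library left out, being positive without PGRN KO replicate 6 (0.016).

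Sample quality weights raised the counts of called genes to 14 of the other cytokine receptor chains, 5 signal transducers, 9 negative regulators, 16 induction genes and 26 type I targets. The length correction without PGRN KO replicate 6 gave 7 negative regulators, 14 induction genes and 25 type I targets. The TPM scale gave 2 negative regulators, and no filter, which adjusts over 22912 genes, gave 8 interferon gamma targets. With each library left out the counts were 2 to 12 receptor chains, 1 to 4 transducers, 0 to 7 negative regulators, 2 to 13 induction genes, 9 to 23 type I targets and 7 to 20 interferon gamma targets. Among all tested genes the share that passed, 24.2% in the main test, was 47.6% with sample quality weights. It was 41.3% with the length correction without PGRN KO replicate 6, 17.2% on the TPM scale and 5.96% with no filter. With each library left out it was 8.03% to 41.3%. The cause of these changes was not tested. Of all called genes 42.8% were higher in PGRN KO, against 60.3% on the TPM scale, 62.9% with the sum of fragments and 62.5% under voom, and the median over all genes moved from -0.031 to at most 0.062.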

Other observations

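The genes most like a member over the 6 libraries were found by the root-mean-square difference of log2(FPKM + 1), each gene centred on its mean. The search covered the tested genes, except those with provisional names (Gm and a number, or ending in Rik). Nearest to Ifnb1 was Ccl5, a chemokine of activated macrophages, with a difference of 0.046, at 1325, 1635 and 1002 FPKM in WT and 1674, 1267 and 2030 FPKM in PGRN KO. In both genes WT replicate 3 was the lowest library and PGRN KO replicate 6 the highest. Both gene models are short, at 750 bases for Ifnb1 and 960 bases for Ccl5. Tested genes as short as Ifnb1 were higher in replicate 6 than in replicates 4 and 5 (median log2 difference 0.43). The part of gene length in this likeness was not tested. Next were Rnd1 (0.076) and Ppia (0.111), the latter a gene with many processed copies in the genome, so that its count is uncertain. None of these 3 genes passed the threshold (limma adjusted p 0.337, 0.429 and 0.144).

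Nearest to Jak1 were Rps6ka2, a ribosomal S6 kinase, and Gpd2, the mitochondrial glycerol-3-phosphate dehydrogenase (0.017 each), and Sirt1, a protein deacetylase (0.021). Gpd2 was at 16.3, 17.0 and 15.1 FPKM in WT and 11.1, 11.2 and 8.50 FPKM in PGRN KO, with replicate 6 the lowest as for Jak1. Its model is also long, at 6549 bases, and tested genes as long as Jak1 were lower in replicate 6 (median log2 difference -0.2). The part of gene length was not tested here either. Nearest to Tyk2 were Cd109 (0.044), Khnyn (0.049) and Rnf141 (0.051). Khnyn, which encodes a cofactor of the zinc finger antiviral protein, was at 3.95, 3.79 and 4.18 FPKM in WT and 7.57, 6.89 and 5.68 FPKM in PGRN KO. The likeness is a description over 6 libraries that share 2 groups and their depth.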
